A study of Homo sapiens with 2 samples.

Results

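The miR-99, miR-100 and miR-125 families were examined on miRNA arrays of HepG2 cells, a human hepatocellular carcinoma line. The members were the 6 mature miRNAs hsa-miR-99a-5p, hsa-miR-99b-5p, hsa-miR-100-5p, hsa-miR-125a-5p, hsa-miR-125b-5p and hsa-miR-125a-3p, named below without the species prefix. They were chosen by name, with earlier results of these data known. They had 13 probes and 120 spots on each array, of 2549 miRNAs with 5893 probes and 50980 spots. HepG2 cells received either the adenoviral vector Ad-uc.372, which the title of the deposited data describes as overexpressing the ultraconserved transcript uc.372, or the control vector Ad-NC, for 48 h, and their RNA was hybridised to 1-colour Agilent arrays. In such bulk RNA, fewer cells with a miRNA and less of it per cell cannot be told apart. The sample labels give no suffix for the kind of uc.372 vector, so each direction below rests on that title. Each condition had 1 array, so no difference has a replicate check, no test across samples was possible, and the SD given is that between spots of an array, which is technical. Where the spots of several probes are pooled, this SD also holds the difference between probes.

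Both families are ancient. miR-125 is the vertebrate form of lin-4, the first miRNA found in worms, and it is known for acting together with let-7 in developmental timing and cell differentiation. miR-99 and miR-100 are relatives of the miR-10 family and are known to repress mTOR and the IGF1 receptor. In vertebrate genomes the genes lie in clusters that join a miR-99 or miR-100 gene, a let-7 gene and a miR-125 gene, and the miRNAs of such a cluster can be cut from a shared primary transcript. A hairpin yields a 5p and a 3p arm, and the bases at positions 2 to 8 of the arm, the seed, carry most of the pairing with target mRNAs.

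The mature sequences are shown because they define the families and because near-identical members can share a probe's signal. They are RefSeq sequences from the table of GRCh38.p14, 5′ to 3′, with the seed in capitals, and all 6 members were matched.
miR-99a-5p: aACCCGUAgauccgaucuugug
miR-100-5p: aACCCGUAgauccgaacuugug
miR-99b-5p: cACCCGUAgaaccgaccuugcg
miR-125a-5p: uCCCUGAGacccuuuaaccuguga
miR-125b-5p: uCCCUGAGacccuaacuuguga
miR-125a-3p: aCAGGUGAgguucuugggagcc
let-7a-5p: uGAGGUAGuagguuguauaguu
let-7c-5p: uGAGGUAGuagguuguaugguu
let-7e-5p: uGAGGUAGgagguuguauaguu

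The sequences fall into 3 seed groups of members. miR-99a-5p, miR-100-5p and miR-99b-5p share the seed ACCCGUA, and no other miRNA on the array that was found in the RefSeq table had it. miR-99a-5p and miR-100-5p are identical at 21 of 22 positions and differ by U16A, counted from 1 at the 5′ end with the base of miR-99a-5p first. miR-99b-5p differs from miR-99a-5p at 4 positions, A1C, U11A, U16C and U21C. miR-125a-5p, of 24 bases, and miR-125b-5p, of 22 bases, share the seed CCCUGAG and are identical over their first 13 bases. miR-4319 was the only other miRNA found with that seed. The 3p arm of the miR-125a hairpin has a seed of its own, CAGGUGA. Both arms of that hairpin gave signal on these arrays, and they lie in it as shown, with the arms in capitals and the loop between them.
MIR125A hairpin: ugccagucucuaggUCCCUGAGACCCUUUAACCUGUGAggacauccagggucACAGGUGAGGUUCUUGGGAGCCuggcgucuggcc

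In RefSeq's annotation of GRCh38.p14 the members come from 3 clusters. On chromosome 19, MIR99B, MIRLET7E and MIR125A lie on the plus strand within 728 bases, at chr19:51692612-51693339, inside the annotated span of SPACA6, and overlap SPACA6-AS1. On chromosome 21, MIR99A and MIRLET7C lie 739 bases apart from start to start, and MIR125B2 is farther along the plus strand, so that the cluster covers 51.2 kb at chr21:16539089-16590311 within the noncoding host gene MIR99AHG. On chromosome 11, MIR100, MIRLET7A2 and MIR125B1 lie on the minus strand over 52.6 kb at chr11:122099757-122152308, within the noncoding host gene MIR100HG. The table gives the span of each host gene and not whether a hairpin is exonic or intronic. miR-125b-5p is made at 2 loci, on chromosomes 11 and 21, and let-7a-5p at 3, on chromosomes 9, 11 and 22, so that their signal cannot be assigned to a locus.

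In HepG2 cells, products well above background came from the chromosome 19 cluster with both vectors, and the products made only in the chromosome 21 or 11 cluster were not above it. The exception that cannot be placed was let-7a-5p, which was above background and has a locus on chromosome 11 among others. The scanner software flags spots as well above background by a cutoff of its own for each array, called the limit here, and the lowest spot so flagged had a processed signal of 21.1 with Ad-NC and 17.3 with Ad-uc.372. A probe was taken as above background where at least 50% of its spots were, and a miRNA where any of its probes was. Of the 6 members, 1 was well above background on both arrays, miR-125a-5p, and 1 with Ad-uc.372 only, miR-125a-3p. Over all 2549 miRNAs, 8.98% were above background on both arrays, 1.22% with Ad-uc.372 only and 0.275% with Ad-NC only, or 9.26% with Ad-NC and 10.2% with Ad-uc.372 in all, and with 6 members such counts cannot be set apart from that background. The partner let-7e-5p of the same cluster was above background in all 20 of its spots on each array. Its sequence differs from that of let-7a-5p by 1 base, and how much of its signal came from let-7a-5p was not tested. The 2 other products of this cluster that were on the array, miR-99b-3p and let-7e-3p, had no spot above background.

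**Figure D1:**
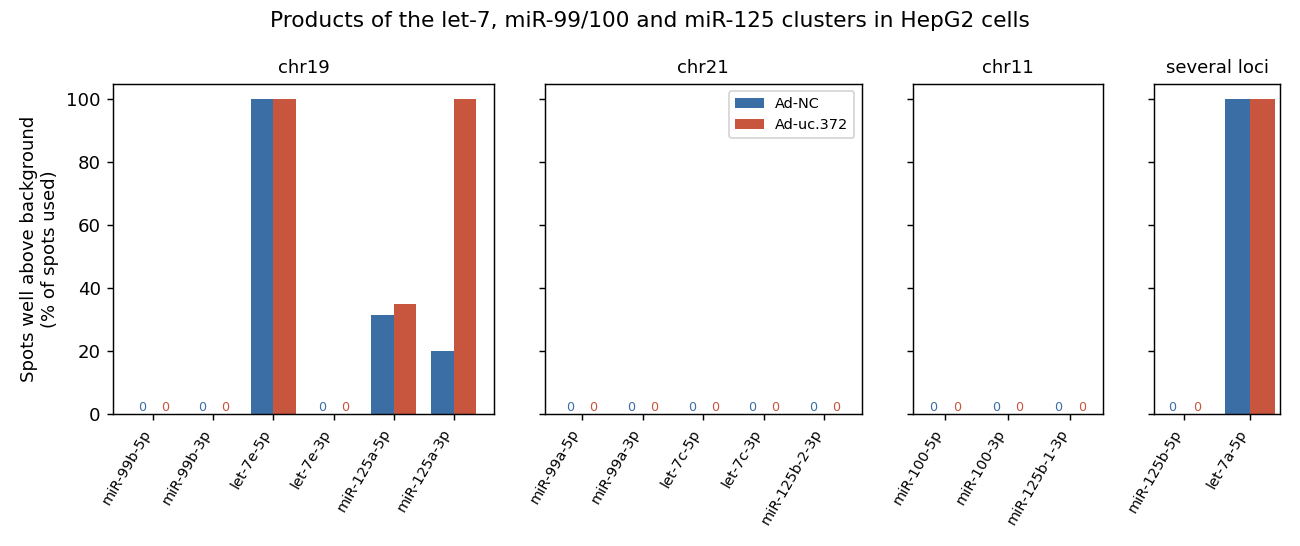
Share of spots well above background, in percent of the spots used, for each mature product of the clusters on chromosomes 19, 21 and 11 and for the products made at several loci, with Ad-NC in blue and Ad-uc.372 in red (1 array each). In the chromosome 19 cluster let-7e-5p stands at 20 of 20 spots on each array and both arms of miR-125a are above 0, and every product made only in the chromosome 21 or 11 cluster stands at 0.

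No spot was well above background for the 5 products made on chromosome 21 alone, with 98 spots used with Ad-NC and 95 with Ad-uc.372, or for the 3 products on the array made on chromosome 11 alone, with 59 and 60 spots. miR-99a-5p had a mean processed signal of -0.073 ± 4.13 (SD, 20 spots) with Ad-NC and 1.15 ± 3.35 (17 spots) with Ad-uc.372, before scaling. miR-100-5p had 1.94 ± 4.61 (20 spots) and -0.090 ± 3.23 (20 spots). miR-125b-5p had -0.63 ± 3.68 (20 spots) and -1.66 ± 3.43 (19 spots). Each of these means was below that of the negative control spots, which was 3.94 ± 3.77 (989 spots) with Ad-NC and 3.48 ± 3.39 (982 spots) with Ad-uc.372. No spot of these 3 miRNAs exceeded the brightest negative control spot, at 15.7 with Ad-NC and 13.9 with Ad-uc.372. With signals at background on both arrays there is no difference between the vectors to give for miR-99a-5p, miR-100-5p or miR-125b-5p, and a change under the limit was not detectable.

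The 3p arms of these hairpins were at background as well. Their means lay between -1.14 for miR-125b-1-3p with Ad-NC and 2.26 for miR-100-3p with Ad-uc.372, and the highest spot kept was at 15.1, for miR-125b-2-3p with Ad-NC, where a spot at 19.7 had been left out as an outlier. let-7c-5p, the let-7 miRNA of the chromosome 21 cluster, had 7.68 ± 6.02 (19 spots) with Ad-NC and 7.20 ± 4.93 (20 spots) with Ad-uc.372, with its probes pooled. These means were above that of the negative controls, but no spot was past the limit on either array. Its first probe had 11.3 ± 5.62 (10 spots) and 9.94 ± 4.59 (10 spots). Its second probe had 3.62 ± 3.26 (9 spots) and 4.46 ± 3.67 (10 spots), close to the negative controls. let-7c-5p differs from let-7a-5p by A19G, and let-7a-5p was bright, with every spot that was kept at or above 536 with Ad-NC and 406 with Ad-uc.372, and 2 spots with Ad-NC, at 422 and 418, left out as outliers. What part of the let-7c-5p signal came from let-7a-5p was not tested. let-7a-5p itself was above background on both of its probes, with a scaled log2 difference of -0.38 (combined spot SD 0.25). It became 0.11 when scaled to the percentile over all probes, where the median of all miRNAs measured on both arrays was 0.32. These values do not tell whether MIRLET7A2 on chromosome 11 was active. The 3p arm that is specific to that locus, let-7a-2-3p, was not analysed here.

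miR-99b-5p, the miR-99 member of the chromosome 19 cluster, gave a faint signal that stayed under the limit on both arrays. Its second probe had a mean processed signal of 12.04 ± 4.32 (10 spots) with Ad-NC and 11.6 ± 3.34 (10 spots) with Ad-uc.372, before scaling. Its first probe had 4.07 ± 5.09 (10 spots) and 4.92 ± 2.84 (10 spots), close to the negative controls. The spots of each probe overlapped between the arrays. Of the 20 spots of miR-99b-5p, 7 with Ad-NC and 7 with Ad-uc.372 exceeded the 95th percentile of the negative control spots, against 0 for miR-99a-5p on either array, 1 and 0 for miR-100-5p and 0 for miR-125b-5p on either. The count was near that of let-7c-5p, with 6 of 19 spots and 6 of 20, and of the relative miR-10b-5p, with 9 and 10 of 20, neither of which was above background. All of these miR-99b-5p spots were of its second probe. The brightest negative control spot was exceeded by 1 spot of miR-99b-5p with Ad-NC and 3 with Ad-uc.372, and also by spots of let-7c-5p and miR-10b-5p on both arrays. The software also marks spots as positive and significant, a weaker flag that 45.4% of the negative control spots carried with Ad-NC and 49.6% with Ad-uc.372. miR-99b-5p carried it in 13 of 20 and 17 of 20 spots. miR-99a-5p, miR-100-5p and miR-125b-5p together carried it in 13 of 60 and 9 of 56, let-7c-5p in 13 of 19 and 15 of 20, and miR-10b-5p in 16 and 18 of 20.

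**Figure D2:**
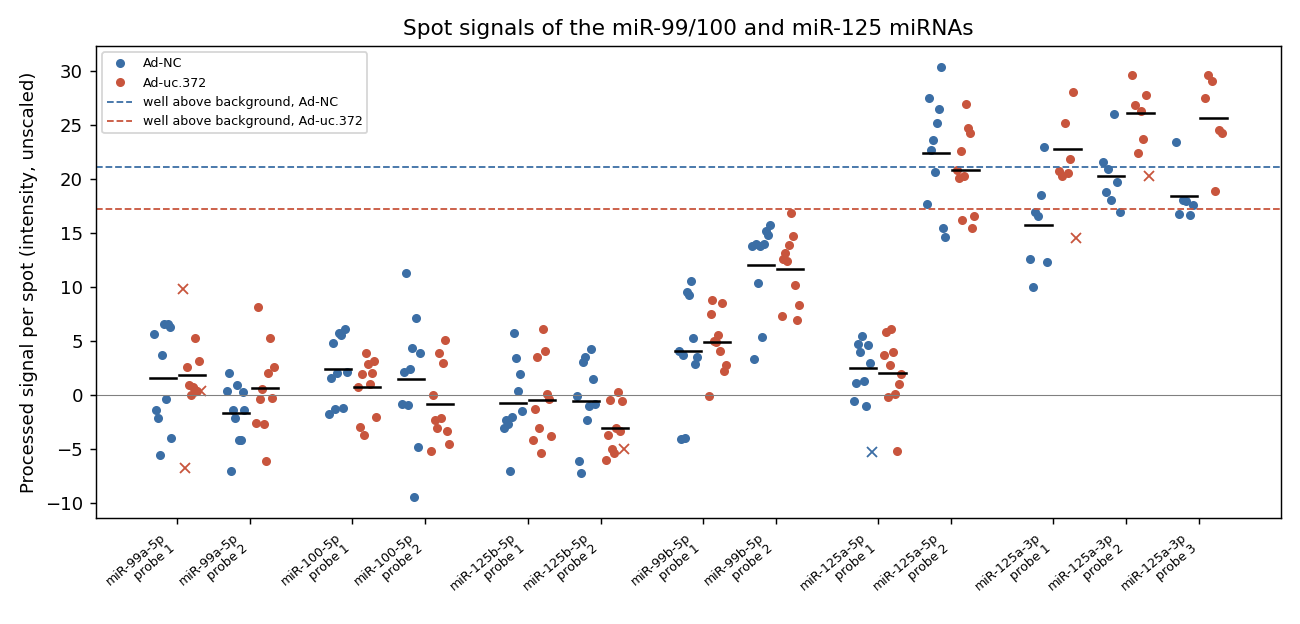
Processed signal of each spot (intensity before scaling) for the 13 probes of the 6 members, with Ad-NC in blue and Ad-uc.372 in red, crosses for spots marked as outliers, black bars for the mean of the other spots, and dashed lines for the limits at 21.1 and 17.3. The probes of miR-99a-5p, miR-100-5p and miR-125b-5p scatter around 0, those of miR-99b-5p lie under both limits, and 1 probe of miR-125a-5p and all 3 of miR-125a-3p lie around the limits.

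miR-125a-5p was the member measured on both arrays. Its second probe had a processed signal of 14.7 at the lowest, 23.2 in the median and 30.4 at the highest over 10 spots with Ad-NC, and of 15.5, 20.6 and 27.0 over 10 spots with Ad-uc.372, before scaling. The spots of the arrays overlapped throughout, and 6 with Ad-NC and 7 with Ad-uc.372 were past the limit of their array. The other probe was at background, at 2.50 ± 2.39 (9 spots) and 2.003 ± 3.36 (10 spots). With dim spots raised to the limit and each array scaled to the 75th percentile of the probes above background on both, the log2 difference, Ad-uc.372 minus Ad-NC, was -0.42 with a combined spot SD of 0.30, or 1.33-fold lower with Ad-uc.372. Over the 229 miRNAs measured on both arrays the median log2 difference was -0.17 and the middle 50% lay between -0.34 and 0.013, and miR-125a-5p had the 31st lowest value.

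The size of this difference depends on the limit and on the scaling. The limit was lower with Ad-uc.372 by 0.29 on the log2 scale, so that raising dim spots to it moves a probe near the limit toward a lower value with Ad-uc.372. With the lower limit used on both arrays, chosen after the data were seen, the log2 difference of miR-125a-5p was -0.12. The median of all miRNAs measured on both arrays was then 0.047. That setting also changed the set of probes used for scaling, so -0.12 does not give the effect of the limit alone. let-7a-5p and let-7e-5p, whose spots were all past both limits, moved from -0.38 and -0.51 to -0.16 and -0.30 under it. From the spot means without a limit or scaling, miR-125a-5p was at -0.11, or 1.08-fold lower. From spot means without a floor but scaled, also chosen after the data were seen, it was at -0.35. The median of all miRNAs was then -0.17. Scaling to the 75th percentile over all probes, which moves each difference by a constant, turned that of miR-125a-5p to 0.067. It also turned the median of the 229 miRNAs to 0.32, so miR-125a-5p remained below the median. Of the members measured on both arrays, 0 were 1.5-fold apart, against 3.93% of the 229 miRNAs, of which 1.31% were higher and 2.62% lower with Ad-uc.372. let-7e-5p was lower with Ad-uc.372 by a scaled log2 difference of -0.51 (combined spot SD 0.23), which became -0.027 under the percentile over all probes.

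**Figure D3:**
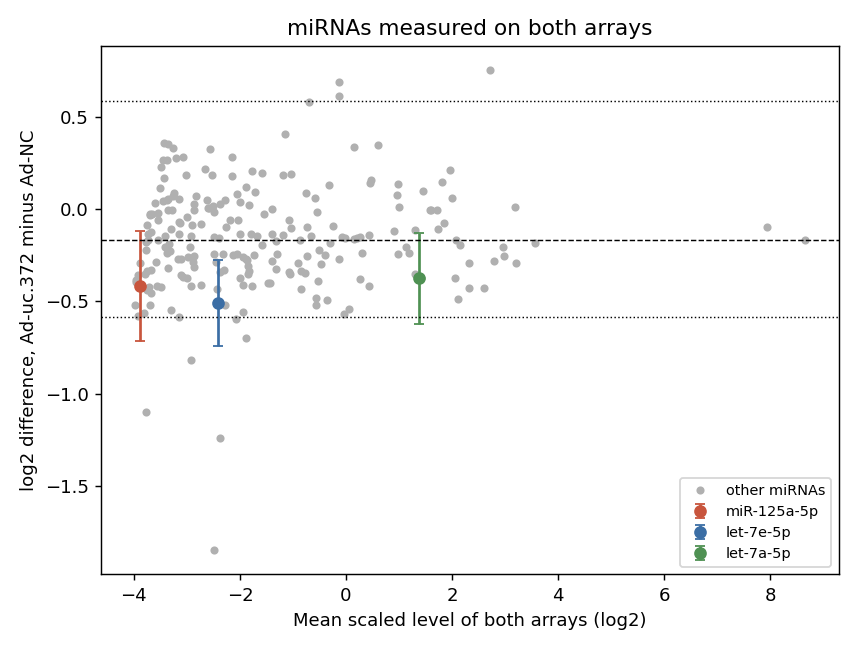
Scaled log2 difference, Ad-uc.372 minus Ad-NC, against the mean scaled log2 level of both arrays, for the 229 miRNAs measured on both arrays, with the combined spot SD as bars for the 3 coloured miRNAs, dotted lines at 1.5-fold and a dashed line at the median of -0.17. miR-125a-5p at -0.42, let-7e-5p at -0.51 and let-7a-5p at -0.38 lie below the median and inside the 1.5-fold lines.

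miR-125a-3p was above background with Ad-uc.372 only, and its 3 probes were each brighter there. The first probe had a mean processed signal of 15.7 ± 4.40 (7 spots) with Ad-NC and 22.8 ± 3.18 (6 spots) with Ad-uc.372, before scaling. The second had 20.3 ± 2.99 (7 spots) and 26.1 ± 2.64 (6 spots), and the third 18.4 ± 2.52 (6 spots) and 25.7 ± 4.01 (6 spots). The spots of the arrays overlapped on every probe: 4, 2 and 1 of the 6 spots with Ad-uc.372 were no brighter than the brightest with Ad-NC. Past the limit of its own array were 4 of 20 spots with Ad-NC and 18 of 18 with Ad-uc.372, where 2 further spots, among them the dimmest, had been left out as outliers. The reference used for scaling was higher with Ad-uc.372, at 356.5 against 304.6 with Ad-NC. With the spot means scaled to it and no floor, the 3 probes were higher with Ad-uc.372 by 0.31, 0.14 and 0.25 in log2.

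The unequal limits bear on this difference in detection. With the limit of the Ad-uc.372 array applied to both, 12 of 20 spots with Ad-NC were past it, and miR-125a-3p was then measured on both arrays with a scaled log2 difference of 0.40. This choice was made after the data were seen, and the median of all miRNAs measured on both arrays was then 0.047. It also changed the set of probes used for scaling, so 0.40 does not give the effect of the common limit alone. From spot means without a floor, scaled to the main reference, miR-125a-3p was at 0.23 over its 3 probes. With the limits as the software set them, the bound for the brightest probe was at least 1.01-fold higher with Ad-uc.372, and for the other probes no fold can be given. Without a second array per condition, none of these values can be set against the spread between samples. The software's own call of detected miRNAs, made from the total signal, included both arms of miR-125a and let-7e-5p on both arrays, as it did 10.9% of all miRNAs, and miR-99b-5p with Ad-uc.372 only, as 1.57% of all miRNAs.

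let-7e-5p, the let-7 miRNA of the same cluster, was above background on both probes and both arrays. Like let-7c-5p, it differs from the brighter let-7a-5p by 1 base, here U9G with the base of let-7a-5p first. What part of the let-7e-5p signal and difference came from let-7a-5p was not tested. The second probe of let-7e-5p had 96.3 ± 9.05 (10 spots) with Ad-NC and 72.3 ± 6.42 (10 spots) with Ad-uc.372, and its brightest spot with Ad-uc.372, at 80.8, was below its dimmest with Ad-NC, at 84.9. Of the 393 probes measured on both arrays, 4.58% had every spot lower with Ad-uc.372 in this way. Its first probe had 49.3 ± 5.49 (10 spots) and 44.6 ± 6.97 (10 spots), which overlapped.

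The relatives outside the clusters gave no product above background. Of the 4 arms of miR-10a and miR-10b, which lie in HOX gene clusters, 0 were above background on either array. miR-10b-5p had a mean processed signal of 9.59 ± 6.18 (20 spots) with Ad-NC and 8.53 ± 4.10 (20 spots) with Ad-uc.372, before scaling, with 1 spot past the limit with Ad-NC. By probe, the means were 7.08 ± 5.64 and 12.1 ± 5.89 with Ad-NC, and 6.58 ± 4.04 and 10.5 ± 3.27 with Ad-uc.372 (10 spots each). miR-4319, which shares the miR-125 seed, had -3.97 ± 3.53 and -3.53 ± 2.94 (20 spots each).

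Outliers made up 1 of the 120 member spots with Ad-NC and 6 with Ad-uc.372, no spot was saturated, and 7.65% and 8.48% of all spots were well above background. Of the 4 miRNAs listed for a hepatocyte line, miR-192-5p, miR-194-5p and miR-21-5p were above background on both arrays, and miR-122-5p, the most abundant miRNA of liver, was not on either. Whether this list identifies the cell type was not tested. Of 10 markers of blood, endothelial, mesenchymal and muscle cells, 0 were above background on either array, with spots between -8.57 and 16.0.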

How the data were processed

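Total RNA of 2 HepG2 samples, 1 with Ad-NC and 1 with Ad-uc.372, was labelled with Cy3 and hybridised to Agilent human miRNA arrays. Per the labels, the authors read the images with Agilent Feature Extraction 10.10. The deposited intensity of a spot has its background subtracted but was not brought to a common scale across arrays. The grid file names hg19. The authors also deposited log2 values, which equal the log2 of the total signal per miRNA minus a constant per array, within 0.001 for 2567 and 2563 of 2570 rows. Their methods name GeneSpring GX and not the kind of normalization.

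Control and outlier spots were left out, spots under the limit of their array were raised to it, the spots of each probe were averaged as log2 values, and each array was scaled to the 75th percentile of the probes above background on both (304.6 and 356.5 in signal). Differences of probes above background on both arrays were averaged per miRNA. Levels of different probes were not ranked. The members, partners and lists were chosen with earlier results of these data known, and the miRNAs named are all members, the other products of their clusters, the miR-10 arms and miRNAs with a member's seed. Of the array's 2549 miRNAs, 2248 were found by name in the RefSeq table, whose build differs from that of the grid. The alternatives, 14 planned and 5 added after the values were seen, cover scaling, background, spots, probes and limits. The steps were tested on simulated data. Python 3.11.15, numpy 2.4.6, pandas 2.3.3, matplotlib 3.10.9, and R 4.3.3 with limma 3.58.1 (normexp, offset 50, on the median spot and background signals) were used.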

Additional observations from a re-analysis of the deposited data

How the results depend on the processing

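No paired analysis was possible because there is 1 array per condition, and for the same reason none was left out. The higher or lower limit on both arrays, spots averaged before log2 without a floor, and the positive and significant flag (weaker flag below), alone or with such averaging, were added after seeing the data. Causes were not tested.

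The count of members above background on both arrays, 1, became 2 with the total signal per miRNA, the deposited values, any spot above background, and the lower limit, 3 with the weaker flag (3 also with averaging), and 0 with every spot above background and with the higher limit. The count of members 1.5-fold apart was 0 in each alternative. miR-125a-5p lay between -0.47 and 0.067 over 16 alternatives, below 0 in 15, and moved past its spot SD to 0.067 with the percentile over all probes. miR-125a-3p had a value only in 6 alternatives that count it as above background with Ad-NC, between 0.12 and 0.43. miR-99b-5p had -0.043 and -0.088 with the weaker flag. let-7e-5p was lower in 18 of 18, from -0.64 to -0.027, past 1.5-fold in 2, the deposited values and the brightest probe. It moved past its spot SD to -0.027 with the percentile over all probes. let-7a-5p moved to 0.11 with the percentile over all probes and -0.13 with quantile normalization. The other 48 values of miR-125a-5p, let-7e-5p and let-7a-5p moved less than their spot SD. Those of miR-125a-3p and miR-99b-5p were not set against a spot SD.

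The median of members measured on both arrays, -0.42 for miR-125a-5p alone, became 0.067 with the percentile over all probes, -0.035 with any spot above background, 0.11 with the total signal, 0.14 with the lower limit, and -0.043 and -0.088 with the weaker flag without and with averaging; all but the first include more members. The median of all miRNAs, -0.17, became 0.060 without scaling, 0.32 with the percentile over all probes, -0.064 with the median, -0.0044 with quantile normalization, 0.010 with the total signal, -0.024 with any spot above background, -0.065 with the higher and 0.047 with the lower limit, and -0.031 with the weaker flag and averaging. The count of all miRNAs past 1.5-fold, 9, was 37 with the percentile over all probes, 32 with the deposited values, 30 with the total signal, 57 and 87 with the weaker flag, 3 with normexp and 3 at 2-fold. The split of higher to lower, 3 to 6, was 34 to 3 with the percentile over all probes, 22 to 8 with the total signal, 8 to 24 with the deposited values, 6 to 4 without scaling, 5 to 4 with quantile normalization, and 9 to 4 with the lower limit.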

Other observations

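The deposited log2 values give these miRNAs differences that their spots do not show. A miRNA that the software did not call detected carries a fixed total signal of 0.1, which became -4.71 with Ad-NC and -5.04 with Ad-uc.372. miR-99a-5p, miR-100-5p and miR-125b-5p were 3 of the 2213 miRNAs at this value on both arrays, and their deposited difference of -0.33, Ad-uc.372 minus Ad-NC, is that of the array constants and not of a measured signal. miR-99b-5p was called detected with Ad-uc.372 only, with a total signal of 1.65, and its deposited values of -4.71 and -0.996 differ by 3.71 on the log2 scale, or 13.1-fold. Its 20 spots had mean processed signals of 8.05 ± 6.15 with Ad-NC and 8.28 ± 4.58 with Ad-uc.372, before scaling, with the lowest at -4.05 and -0.098 and the highest at 15.7 and 16.9, so the spots overlapped over most of their range.

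For the products of the chromosome 19 cluster that the software called detected on both arrays, the deposited differences were -0.44 for miR-125a-5p, 0.12 for miR-125a-3p and -0.64 for let-7e-5p.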
